A study of Bos taurus with 6 samples.

Results

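The genes described here move water, glycerol, urea and carbon dioxide across cells: 5 aquaporins (AQP1, AQP3, AQP5, AQP7 and AQP11), the urea transporter SLC14A1 and 4 carbonic anhydrases (CA2, CA9, CA12 and CA13). They were chosen by name for the water, urea and bicarbonate handling of rumen epithelium, each name occurred once, and they are 10 of the 32183 genes listed. RNA was sequenced from 6 cultures of rumen epithelial primary cells (REPC), all grown from the rumen epithelium of a single Holstein bull calf that was 2 weeks old and had received milk replacer and no solid feed. In 3 cultures 5 mM butyrate was present in the medium for 24 h, and 3 cultures were controls, for which the labels give neither an added agent nor a time. All cultures come from 1 animal, so p-values measure the spread between cultures, which may be technical, and say nothing of other calves.

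The rumen epithelium is a stratified epithelium that absorbs short-chain fatty acids, butyrate among them, and passes water, ions and urea between the blood and the rumen fluid. Aquaporins are membrane channels for water, and the aquaglyceroporins among them also pass glycerol. Urea transporters let blood urea enter the rumen, where microbes use its nitrogen, and carbonic anhydrases interconvert carbon dioxide and bicarbonate, which is exchanged for fatty acids at the epithelial surface.

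Values are FPKM, fragments scaled to transcript length and to the number of mapped fragments. They can therefore be compared between genes. Summed FPKM ranged from 678035 to 681912 over the controls and from 619401 to 629037 over the butyrate cultures. Expression of all listed genes was more alike within groups (Pearson's r across genes of log2(FPKM + 1) between 0.9948 and 0.9955) than between groups (0.9626 to 0.9663).

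Of the 10 genes, 6 averaged 0.1 FPKM or more over the 6 cultures and were tested, with limma on log2(FPKM + 0.1). "Rose" and "fell" refer to a Benjamini-Hochberg (BH) adjusted p under 0.05 over all 15813 tested genes. AQP1, AQP3 and CA13 rose, AQP11 and CA2 fell, and CA9 did not pass the test. These are 3 higher and 2 lower of 6, where 32.5% of all tested genes were higher, 25.9% were lower and 58.4% were called in either direction. The study's thresholds are a Bonferroni-adjusted p under 0.05 with a log2 fold change above 2 or below -2. They were applied here to limma and not to the study's own test. With them AQP1 and CA13 were up and no member was down, against 2.46% of all tested genes up and 1.51% down. All 3 butyrate cultures lay above all 3 controls for 3 members and below them for 2, which was so for 36.1% and 28.9% of all tested genes. These counts rest on 6 genes and are given as a description. In bulk RNA, more cells of a type and more RNA per cell cannot be told apart.

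All 15 epithelial markers were detected, 11 rose and 1 fell, and their summed FPKM was 6468 to 6734 in control and 9420 to 9705 with butyrate. All 8 tested fibroblast markers rose, and the 9 listed summed to 1939 to 1995 FPKM in control and 2817 to 3068 with butyrate. Of 5 smooth muscle markers 3 fell (ACTA2, CNN1 and MYH11) and 1 rose, and they summed to 3460 to 3648 FPKM in control and 1056 to 1416 with butyrate. Of 6 immune markers 2 were tested, CD68 rose, CD14 was not called, and PTPRC was at 0 in all cultures. The 6 summed to 5.28 to 7.15 FPKM in control and 7.23 to 9.48 FPKM with butyrate. CD14 made up most of this, at 4.45 to 6.66 FPKM in control and 5.97 to 8.16 FPKM with butyrate. The part of these other markers in the results that follow was not tested.

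**Figure D1:**
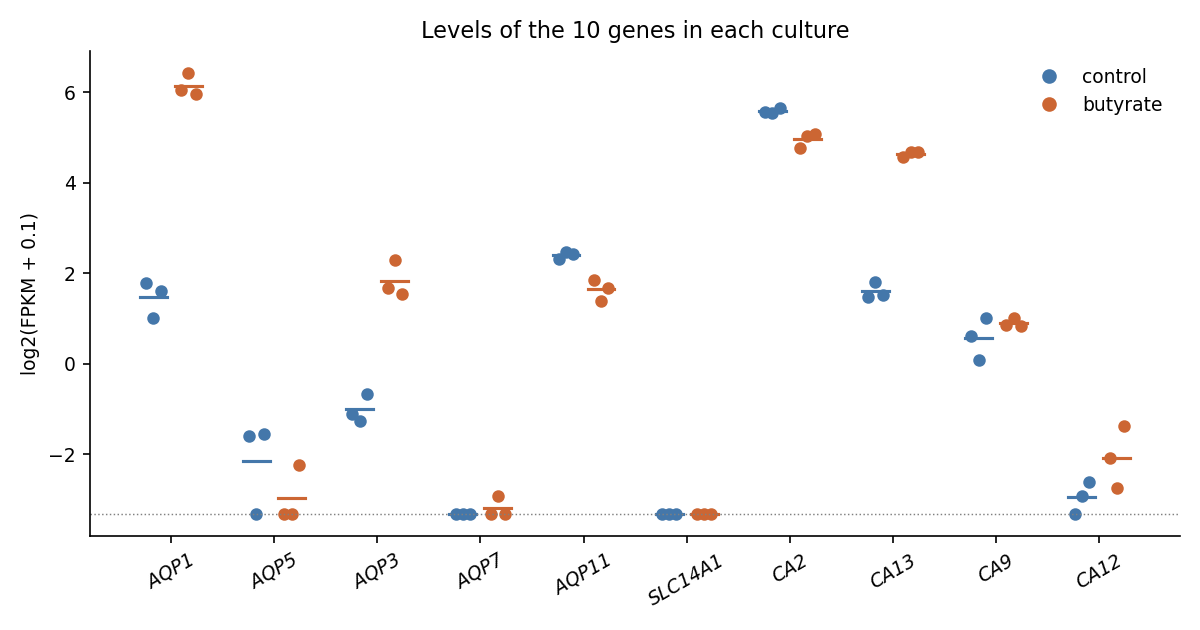
Level of each of the 10 genes in each culture, as log2(FPKM + 0.1), for 3 control and 3 butyrate cultures; bars are group means and the dotted line is a value of 0 FPKM. Butyrate and control points are separated for AQP1, AQP3, AQP11, CA2 and CA13, whereas SLC14A1 lies at 0 in all 6 cultures.

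AQP1, a channel that passes water and is abundant in red blood cells, kidney tubules and small vessels, showed the largest difference of the 10 genes. Its level was 3.34, 1.92 and 2.93 FPKM in control replicates 1 to 3 and 66.1, 86.1 and 62.3 FPKM in butyrate replicates 1 to 3. Every butyrate culture was far above every control. The mean went from 2.73 ± 0.727 to 71.5 ± 12.8 FPKM (SD, n = 3 each), a 26.2-fold difference of means. The log2 fold change was 4.68 (SE 0.201, 95% interval 4.22 to 5.14), which stood at percentile 99.6 of all tested genes (limma, BH adjusted p = 3.42e-07). AQP1 also passed the study's thresholds (limma, Bonferroni-adjusted p = 0.000104). The gene lies on chromosome 4 from 65830989 to 65845186 in the files' coordinates, on the UMD3.1 build named in the submitters' processing notes.

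The tables hold no counts, so depth was read only indirectly. The confidence bounds beside each FPKM correspond to about 45.8 to 86 fragments for AQP1 in a control culture and 1600 to 2430 in a butyrate culture, if they reflect counting error. The same reading is used for the genes below and is rough. For AQP7 in butyrate replicate 2 it gave 0.0608, a mere fraction of a fragment, so these numbers are not counts. On this reading the spread of AQP1 between control cultures was measured on few fragments, although the gap between the groups was far wider than this spread.

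Since AQP1 is also a gene of vessel and red cells, the markers of both were set beside it. Of 8 endothelial markers, 3 were high enough to be tested, and PECAM1 and VWF, a junction protein and a clotting factor of endothelium, rose. PECAM1 was between 1.32 and 1.70 FPKM in control and between 3.04 and 4.88 with butyrate, a log2 fold change of 1.28 (limma, BH adjusted p = 0.000821). VWF was between 0.341 and 0.655 FPKM in control and between 2.96 and 3.53 with butyrate, a log2 fold change of 2.65 (limma, BH adjusted p = 3.72e-05). EMCN, also tested, was not called. CDH5 was at 0 in all 6 cultures. KDR reached 0.0146 FPKM at most, TEK 0.0873 FPKM in a control culture, TIE1 0.116 FPKM and CLDN5 0.366 FPKM. Together the 8 markers summed to 2.10 to 2.42 FPKM in control and to 7.20 to 9.26 FPKM with butyrate. Of 7 erythroid markers, ALAS2 and HBA were at 0 in all cultures, 3 were tested, and HBM, a hemoglobin chain, rose, with 2.36, 0 and 0.408 FPKM in control and 5.75, 5.38 and 3.08 FPKM with butyrate (limma, BH adjusted p = 0.0186). AHSP and KLF1, also tested, had log2 fold changes of -1.35 and -1.39 and were not called. The 7 markers summed to 1.06 to 3.50 FPKM in control and to 3.21 to 7.58 FPKM with butyrate. Whether cells of these types had a part in the AQP1 level was not tested beyond these values.

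**Figure D2:**
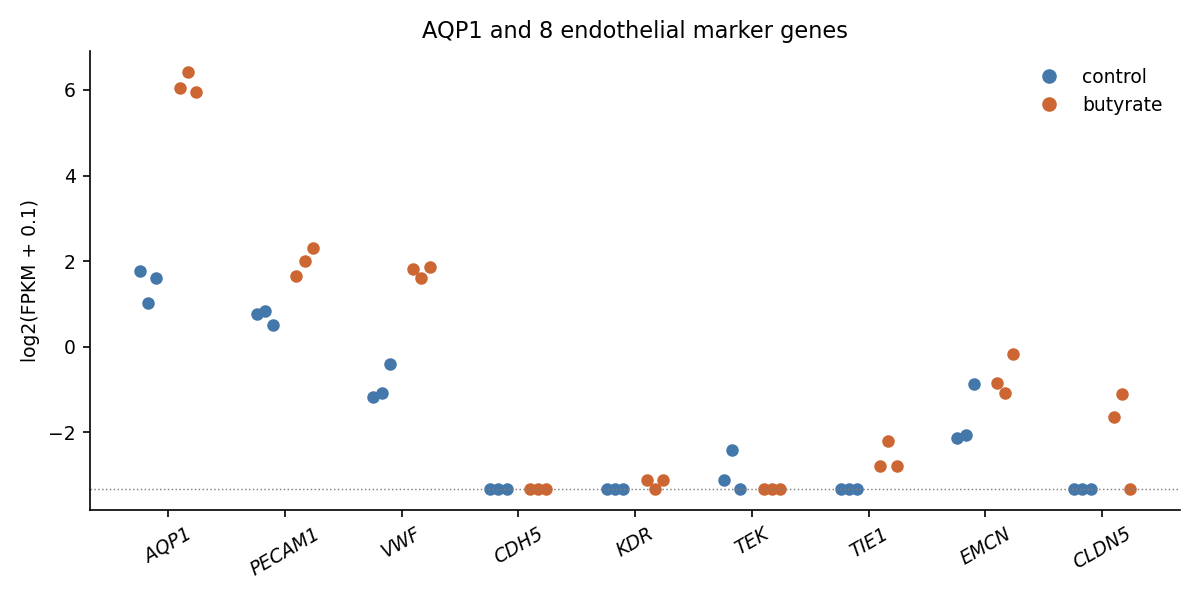
Level of AQP1 and of 8 endothelial marker genes in each culture, as log2(FPKM + 0.1), with 3 control and 3 butyrate cultures per gene and a dotted line at 0 FPKM. AQP1, PECAM1 and VWF are higher in the butyrate cultures than in the controls, and CDH5 is at 0 in all 6 cultures.

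AQP5, the other classical water channel of the set, is known from the apical membrane of glands and of lung epithelium. It was listed at 0.233, 0 and 0.242 FPKM in control and at 0, 0 and 0.112 FPKM with butyrate. These values correspond to about 2 fragments or fewer in a culture, the groups overlapped, and the gene was too low to be tested. When genes of any level were kept, its log2 fold change was -0.81 (SE 0.569; limma, BH adjusted p = 0.307), so a difference was not detectable at this depth.

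AQP3 is an aquaglyceroporin of basolateral membranes and of the lower layers of stratified epithelia such as the epidermis. Its level was 0.366, 0.319 and 0.533 FPKM in control and 3.11, 4.77 and 2.82 FPKM with butyrate. The groups did not overlap, and the mean went from 0.406 ± 0.112 to 3.56 ± 1.05 FPKM (SD, n = 3 each), an 8.78-fold difference. AQP3 rose with a log2 fold change of 2.84 (SE 0.277, 95% interval 2.21 to 3.48; limma, BH adjusted p = 3.6e-05), but it missed the study's threshold on p (limma, Bonferroni-adjusted p = 0.0804). The bounds correspond to about 4 to 7 fragments for the control values and 37.6 to 68.7 for the butyrate values. With a pseudocount of 1 in place of 0.1 the log2 fold change was 1.68, since the control level lies below that pseudocount.

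AQP7, an aquaglyceroporin best known from fat cells, from which it releases glycerol, was listed at 0 in 5 cultures and at 0.0315 FPKM in butyrate replicate 2. It was not tested. Of 5 adipocyte markers, 2 were tested and neither was called, and they summed to 0.947 to 1.27 FPKM in control and to 1.00 to 1.42 FPKM with butyrate. AQP7 and AQP3 lie side by side on chromosome 8, 40432 bases apart, with no other listed entry between them, and only AQP3 was high enough to be tested.

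AQP11 is an unorthodox aquaporin of intracellular membranes. Its level was 4.84, 5.48 and 5.28 FPKM in control and 3.53, 2.54 and 3.12 FPKM with butyrate, with every butyrate culture below every control. The mean went from 5.20 ± 0.327 to 3.06 ± 0.498 FPKM (SD, n = 3 each), which is 1.7-fold lower. AQP11 fell, with a log2 fold change of -0.76 (SE 0.155, 95% interval -1.11 to -0.40; limma, BH adjusted p = 0.00292), and did not reach the study's thresholds. Its bounds, read in the same way, correspond to about 22 to 23.1 fragments per control culture and 13.2 to 15.2 per butyrate culture.

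These unequal differences turned the makeup of the aquaporin RNA around. In the control cultures AQP11 made up 61.6% ± 8.28 of the summed FPKM of the 5 aquaporins and AQP1 31.9% ± 6.58 (SD, n = 3 each). With butyrate AQP1 made up 91.4% ± 0.666 and AQP11 4.04% ± 1.16. The ratio of AQP1 to AQP11 was between 0.351 and 0.689 in control and between 18.7 and 33.9 with butyrate. The share of AQP3 differed less than its level did, with 4.74% ± 1.03 in control and 4.50% ± 0.529 with butyrate, since the sum itself went from 8.50 ± 0.677 to 78.2 ± 13.4 FPKM. These shares and ratios follow from the levels above and were not tested again.

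Among the 13 listed genes of the whole aquaporin family, 5 were at 0 in all cultures and 4 were tested. Of these 2 were higher, 1 was lower and 1 was not called, where 32.5% of all tested genes were higher and 25.9% lower. The gene that was not called was MIP, the aquaporin of the lens, at a mean of 0.193 FPKM in control and 0.0736 FPKM with butyrate. AQP2, the vasopressin-regulated channel of the kidney, was above 0 in 1 culture, and AQP10 was at or below 0.147 FPKM in every culture. No aquaporin outside AQP1, AQP3 and AQP11 therefore reached a level of 1 FPKM.

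SLC14A1 encodes the urea transporter UT-B, the facilitated urea carrier of red blood cells and of the ruminant rumen wall. It was listed at 0 FPKM in all 3 control and all 3 butyrate cultures. Its kidney relative SLC14A2, the next gene of that family on chromosome 24, was also at 0 in all 6. A level listed at 0 sets no upper limit here, because the tables hold no counts. The nearest genes on either side that averaged 0.1 FPKM or more, SETBP1 and EPG5, had low levels of 0.113 to 0.200 FPKM and 0.238 to 0.481 FPKM over the 6 cultures, and neither was called except as lower after quantile normalization.

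Of the 7 genes for urea transport and urea or ammonia handling, 3 were at 0 in all cultures and 2 were tested. RHBG, an ammonium transporter of basolateral membranes, was between 0.612 and 0.920 FPKM in control and between 1.12 and 1.26 FPKM with butyrate. The groups did not overlap and its log2 fold change was 0.66 (SE 0.244; limma, BH adjusted p = 0.0458), a call that 9 of 13 other settings did not give. ARG2, the mitochondrial arginase, which releases urea from arginine, had a mean of 18.0 ± 2.09 FPKM in control and 18.5 ± 2.28 FPKM with butyrate (SD, n = 3 each) and was not called. It is named here although the naming rule does not cover it. The median log2 fold change of the list, 0.35, rests on these 2 genes alone. It therefore cannot show a shift of the list against all tested genes, whose median was 0.10.

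CA2, the fast cytosolic carbonic anhydrase, was the most abundant of the 10 genes in control. Its level was 47.2, 46.5 and 50.0 FPKM in control and 27.2, 32.8 and 33.7 FPKM with butyrate. All butyrate cultures lay below all controls. The mean went from 47.9 ± 1.84 to 31.3 ± 3.51 FPKM (SD, n = 3 each), which is 1.53-fold lower. CA2 fell by 0.62 on the log2 scale (SE 0.087, 95% interval -0.82 to -0.42; limma, BH adjusted p = 0.000324), without reaching the study's threshold on size.

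CA13, another cytosolic carbonic anhydrase, moved the other way. It was at 2.66, 3.39 and 2.78 FPKM in control and at 23.5, 25.6 and 25.5 FPKM with butyrate. The cultures of each group lay close together and far from those of the other. The mean went from 2.94 ± 0.395 to 24.9 ± 1.22 FPKM (SD, n = 3 each), an 8.45-fold difference. CA13 rose with a log2 fold change of 3.04 (SE 0.116, 95% interval 2.78 to 3.31; limma, BH adjusted p = 1.91e-07) and passed the study's thresholds (limma, Bonferroni-adjusted p = 4.02e-05). The bounds correspond to about 84.4 to 102 fragments for each control value and 583 to 613 for each butyrate value.

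CA9 and CA12 are transmembrane enzymes whose catalytic part faces the outside of the cell, and CA9 is a widely used marker of hypoxia. CA9 was at 1.43, 0.961 and 1.91 FPKM in control and at 1.72, 1.90 and 1.67 FPKM with butyrate. The butyrate values lay within the range of the controls. Its log2 fold change of 0.33 (SE 0.257, 95% interval -0.26 to 0.92; limma, BH adjusted p = 0.298) did not pass the test, and it was -0.07 after quantile normalization, so CA9 is given no direction. The interval leaves room for a rise of nearly 1 on the log2 scale.

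CA12 was listed at 0, 0.0321 and 0.0629 FPKM in control and at 0.135, 0.0483 and 0.284 FPKM with butyrate. The groups overlapped through butyrate replicate 2, and the mean over all cultures was just under the minimum for testing. With genes of any level kept, its log2 fold change was 0.88 (SE 0.393; limma, BH adjusted p = 0.118).

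As with the aquaporins, the makeup of the 4 carbonic anhydrases chosen here differed between the groups, but the sum of these 4 differed little. CA2 was 91.6% ± 0.391 of the summed FPKM of the 4 genes in control and 53.8% ± 1.71 with butyrate, and CA13 was 5.64% ± 0.890 and 42.9% ± 1.52 (SD, n = 3 each). The ratio of CA2 to CA13 was between 13.7 and 18.0 in control and between 1.16 and 1.32 with butyrate, so CA2 remained above CA13 in each culture. The sum of the 4 was 52.3 ± 2.11 FPKM in control and 58.0 ± 4.77 FPKM with butyrate. Shares of the whole family's sum were smaller. CA2 was 52.3% ± 2.20 of it in control and 28.8% ± 2.58 with butyrate, and CA13 was 3.22% ± 0.532 and 22.9% ± 0.589 (SD).

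**Figure D3:**
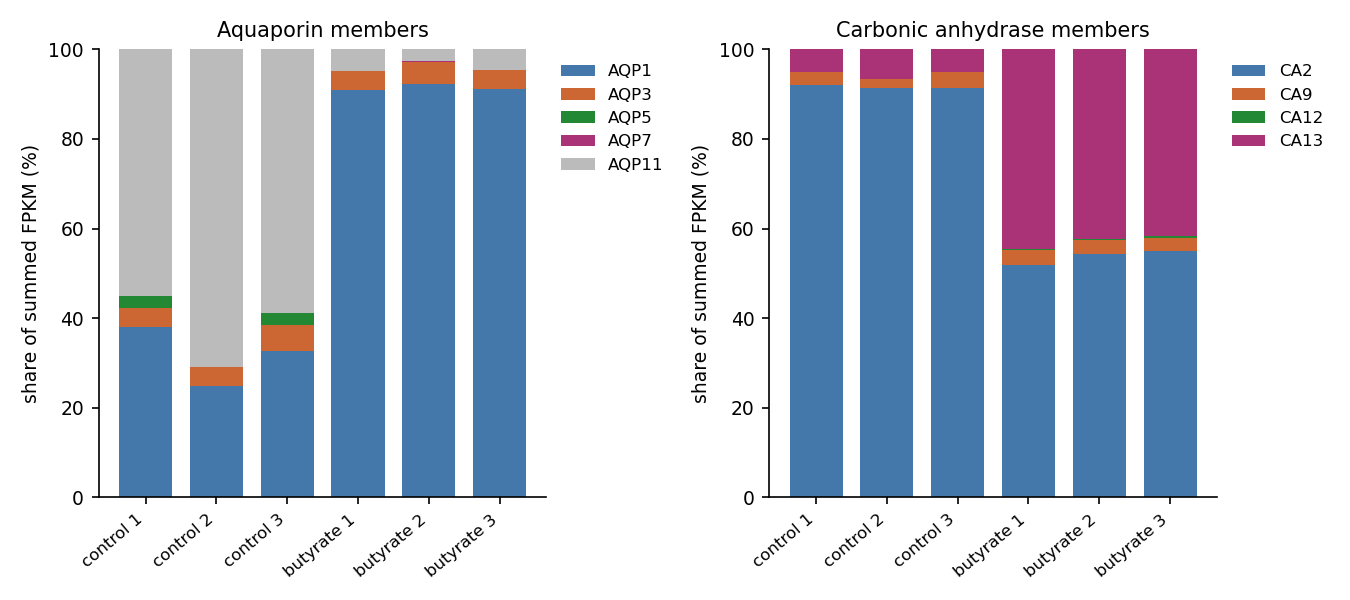
Share of each gene in the summed FPKM of the 5 aquaporins (left) and of the 4 carbonic anhydrases (right), in percent, with 1 stacked bar per culture for 3 control and 3 butyrate cultures. AQP11 holds 55.2% to 71.0% of the aquaporin bar in the controls and AQP1 over 90% with butyrate, and CA13 goes from 5.07% to 6.67% of the carbonic anhydrase bar in the controls to 41.7% to 44.6% with butyrate.

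Of the 15 genes of the carbonic anhydrase family, 5 were at 0 in all cultures and 8 were tested. Of these 2 were higher, 1 was lower and 5 were not called, where 32.5% of all tested genes were higher and 25.9% lower. Besides CA13, the gene that rose was CA4, a carbonic anhydrase anchored to the outer face of the plasma membrane. CA4 was at 2.72, 2.93 and 3.49 FPKM in control and at 9.85, 8.62 and 9.11 FPKM with butyrate, with no overlap. Its log2 fold change was 1.57 (SE 0.133; limma, BH adjusted p = 1.52e-05). CA5B, a mitochondrial enzyme, was the family's second most abundant gene in control at 35.3 ± 4.50 FPKM and the most abundant with butyrate at 39.9 ± 2.64 FPKM (SD, n = 3 each). CA5B was not called, with a log2 fold change of 0.18 (95% interval -0.04 to 0.40; limma, BH adjusted p = 0.136), and it too lies outside the naming rule. It was called higher as TPM (0.31), after quantile normalization (0.25) and without control replicate 3 (0.28), and in none of the 11 other fits. The family's summed FPKM was 91.8 ± 7.02 in control and 109 ± 3.59 with butyrate. The median log2 fold change of its tested genes was 0.26, against 0.10 for all tested genes. It includes CA7, which was at 0 in all controls and at 0.419, 0 and 0.211 FPKM with butyrate. CA7, not called, passed the minimum for testing through its butyrate values, which set its direction.

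Bicarbonate made by carbonic anhydrases crosses membranes through the SLC4 and SLC26 transporters. Of 21 such genes including CFTR, 13 were tested, 7 rose, 0 fell and 6 were not called, where 32.5% of all tested genes were higher and 25.9% lower. Of the 7, SLC4A8 and SLC26A10 passed the minimum for testing through their butyrate values alone, so their direction was set by that minimum. The median log2 fold change of the 13 was 0.61, against 0.10 for all tested genes, and it includes both. After quantile normalization 5 were higher and 1 was lower. The list was drawn up with earlier results of these data known, so the count is a description.

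SLC4A11, which belongs to the bicarbonate transporter family but is known to carry ammonia and protons, differed most. It was at 0.166, 0.182 and 0.173 FPKM in control and at 6.26, 5.44 and 6.31 FPKM with butyrate. Its log2 fold change was 4.48 (SE 0.201; limma, BH adjusted p = 4.39e-07), and it was the only gene of the list past the study's thresholds. With a pseudocount of 1 the log2 fold change was 2.58, because the control level is low.

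SLC26A2, a sulfate transporter, was at 5.77, 5.65 and 5.19 FPKM in control and at 20.6, 19.7 and 17.7 FPKM with butyrate, a log2 fold change of 1.78 (limma, BH adjusted p = 1.18e-06). SLC26A7, an anion exchanger, was between 0.204 and 0.476 FPKM in control and between 1.20 and 1.63 FPKM with butyrate, a log2 fold change of 1.87. SLC26A10 was at 0, 0.0902 and 0 FPKM in control and at 0.240, 0.423 and 0.401 FPKM with butyrate, and it passed the minimum for testing through its butyrate values. The groups of all 3 genes were separate, although for SLC26A10 the call was lost after quantile normalization. SLC4A2, the chloride-bicarbonate exchanger AE2 and the most abundant gene of the list, had a mean of 31.4 ± 2.07 FPKM in control and 47.0 ± 1.35 FPKM with butyrate (SD, n = 3 each). It rose with a log2 fold change of 0.58 (limma, BH adjusted p = 9.11e-05) and was chosen for mention after its values were seen.

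**Figure D4:**
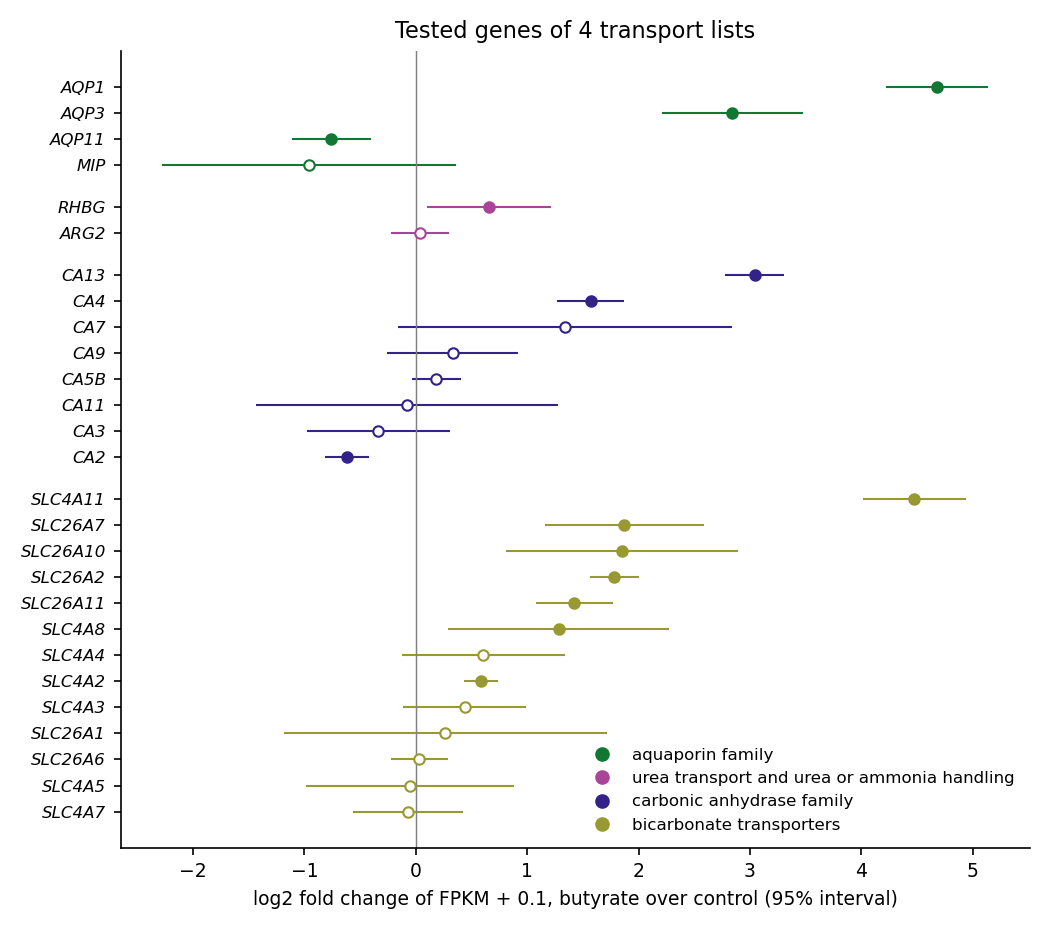
Log2 fold change of FPKM + 0.1, butyrate over control, with 95% intervals, for the tested genes of the aquaporin, urea and ammonia, carbonic anhydrase and bicarbonate transporter lists; filled points have a BH adjusted p under 0.05 and open points do not. AQP1 at 4.68 and SLC4A11 at 4.48 lie farthest to the right, CA13 at 3.04 and AQP3 at 2.84 follow, and AQP11 and CA2 are the filled points left of 0.

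The order of the levels shows the same turn. In control the order was CA2, AQP11, CA13, AQP1, CA9 and AQP3, with ranges that overlapped for CA13 and AQP1 and for no other neighbours among these 6. AQP5, CA12, AQP7 and SLC14A1 followed, each overlapping the next. With butyrate AQP1 came first, and its lowest culture at 62.3 FPKM was above the highest CA2 value of 33.7 FPKM. CA2, CA13, AQP3, AQP11 and CA9 followed, and AQP3 and AQP11 overlapped. CA12, AQP5, AQP7 and SLC14A1 were again the lowest.

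The nearest tested gene on each side was compared with the member. AQP1 stood between GHRHR, the growth hormone releasing hormone receptor, and FAM188B. GHRHR was listed at 0 in all 3 control cultures and at 0.230, 0.236 and 0.444 FPKM with butyrate and was called higher (limma, BH adjusted p = 0.00438), having passed the minimum through its butyrate values. The call on GHRHR was lost after quantile normalization (log2 fold change 1.11; limma, BH adjusted p = 0.0592), and its log2 fold change ran from 0.38 to 4.90 with the pseudocount. FAM188B, 20509 bases to the other side, was not called.

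AQP3 lay 9259 bases from NOL6, a nucleolar protein gene, which went the opposite way. NOL6 was at 9.21, 9.50 and 8.76 FPKM in control and at 3.29, 2.55 and 2.95 FPKM with butyrate, a log2 fold change of -1.62 (limma, BH adjusted p = 1.12e-05). AQP11 and its neighbour CLNS1A, which is 8597 bases away and encodes a chaperone of splicing proteins, both fell, CLNS1A by 0.55 on the log2 scale (limma, BH adjusted p = 0.000208). PAK1, on the other side of AQP11, was not called.

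CA9 lay between a pair of genes that fell. ARHGEF39, 8380 bases away, was at 25.9, 22.3 and 25.7 FPKM in control and at 1.34, 1.68 and 0.832 FPKM with butyrate, a log2 fold change of -4.21 (limma, BH adjusted p = 1.01e-06). TPM2, a tropomyosin gene of muscle, lies 979 bases past CA9. Its mean was 1309 FPKM in control and 706 FPKM with butyrate, and it fell by 0.89 on the log2 scale (limma, BH adjusted p = 2.04e-06).

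CA2 and CA13 belong to 1 cluster on chromosome 14, from 79372237 to 79388591 and from 79694153 to 79733802. CA3, a low-activity enzyme of muscle that lies between them, was at 0.748 ± 0.164 FPKM in control and 0.570 ± 0.111 FPKM with butyrate (SD, n = 3 each) and was not called, although after quantile normalization it was called lower (log2 fold change -0.98; limma, BH adjusted p = 0.0171). CA1 of the same cluster was at 0 in all cultures. Within this cluster CA2 thus fell and CA13 rose. CA3 lies 17899 bases from CA2 and 277665 bases from CA13. C14H8orf59, 20325 bases to the other side of CA13, was not called. LOC104974135 lies 641699 bases to the other side of CA2, with 10 listed entries between, and was not called except after quantile normalization.

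Beside the genes too low to be tested, RACGAP1, a cytokinesis gene near AQP5, fell with a log2 fold change of -2.10 (limma, BH adjusted p = 4.86e-07). BCDIN3D on the other side of AQP5 had a log2 fold change of -0.41 (limma, BH adjusted p = 0.0478), a call that 10 of 14 other settings did not give. USP3 and RAB8B on either side of CA12 rose, with log2 fold changes of 0.81 and 0.69. NFX1, next to AQP7, was not called.

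**Figure D5:**
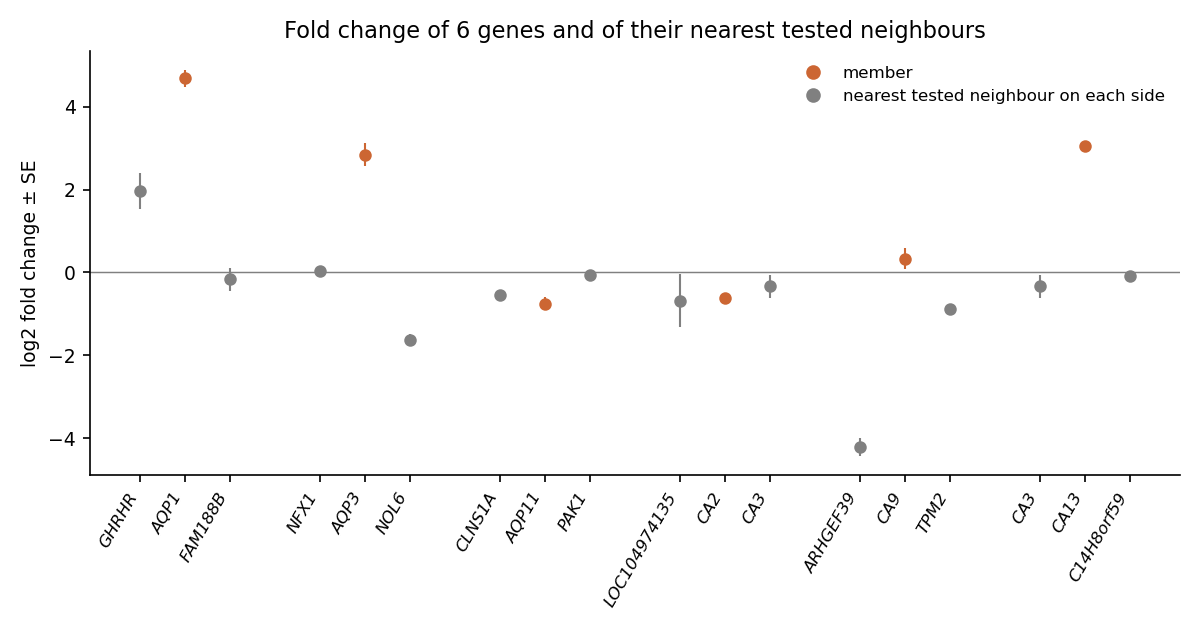
Log2 fold change (butyrate over control, with SE) of the 6 tested members and of the nearest tested gene on each side, in chromosomal order within each group of 3. Other listed genes can lie between a member and its neighbour, and LOC104974135 is 641699 bases from CA2. The members AQP1, AQP3 and CA13 lie at 4.68, 2.84 and 3.04 between neighbours that are lower, and CA9 at 0.33 lies between neighbours at -4.21 and -0.89.

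The genes whose levels followed AQP1 most closely over the 6 cultures were SH3GL3, C7H19orf66 and REEP3, with Pearson's r of log2(FPKM + 0.1) of 0.9997, 0.9996 and 0.9994. SH3GL3, an endophilin gene, was at 8.40, 6.96 and 8.24 FPKM in control and at 21.5, 23.5 and 21.0 FPKM with butyrate. In all 3 genes control replicate 2 was the lowest control and butyrate replicate 2 the highest butyrate culture, as for AQP1. The genes were picked for their r over these same values, so likeness in this order was favoured by the choice. The size of the difference was not matched, and REEP3 had a mean of 72.45 FPKM in control and 115.8 FPKM with butyrate. The 6 points also share the split between groups, so these values are a description.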

How the data were processed

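RNA-seq libraries of 6 REPC cultures (3 control, 3 with butyrate) were analysed. Per the labels and the study's methods, the authors trimmed reads with Trim Galore 0.4.1, aligned them with STAR to a build named UMD3.1, kept uniquely mapped reads and made gene FPKM with Cufflinks. The deposited FPKM are normalised values with confidence bounds and no counts, so no count test was run. An effective number of 5756609 to 6186809 fragments per culture follows from the bounds and is an approximation. The sample preparation is not stated to keep strand, so reads of a gene and an overlapping antisense gene cannot be told apart.

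Genes were joined by position, and starts, which the files count from 0, are given from 1. TNC and FOSL2 had failed estimates and were left out. The 15813 genes that averaged 0.1 FPKM or more were compared on the scale log2(FPKM + 0.1) by limma 3.58.1 (R 4.3.3), letting the variance depend on the level. This scale understates changes of low genes. The code was tested on simulated data. Lists were summarised with pandas 2.3.3 in Python 3.11.15.

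The text names the 10 members, up to 4 called genes of each list with the largest absolute log2 fold change, the nearest gene on each side that averaged 0.1 FPKM or more and the 3 genes most like AQP1. Members and lists were chosen with earlier results of these data known. Gene families were matched by name, and AQP12A was not found. An erythroid marker is not reported here. The control and butyrate cultures carry the same replicate numbers, and a fit with these as a block was an alternative. The other alternatives were pseudocounts of 0.01 and 1, no filter and a minimum of 1, limma without trend, FPKM rescaled to a common total (TPM), quantile normalization, other thresholds and each culture left out in turn. An exact permutation test of 3 against 3 cultures cannot go below 0.1 and was not used. No sequence of the genes was used here.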

Additional observations from a re-analysis of the deposited data

How the results depend on the processing

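The same 5 members (AQP1, AQP3, CA13, AQP11 and CA2) had a BH adjusted p under 0.05 in limma under each of the 14 other fits, with log2 fold changes of 4.29 to 4.84 for AQP1, 1.68 to 3.097 for AQP3, 2.72 to 3.18 for CA13, -0.94 to -0.62 for AQP11 and -0.68 to -0.50 for CA2. The count of members up by the study's thresholds went from 2 to 1 without the mean-variance trend, where AQP1 had a Bonferroni-adjusted p of 0.0521, to 3 with BH in place of Bonferroni adjustment, which adds AQP3, and it was 2 with each culture left out. CA9 was never called and its log2 fold change was -0.074 after quantile normalization.

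Other genes with no call changed sign: NFX1 (-0.021 after quantile normalization), C14H8orf59 (0.042 as TPM, 0.078 after quantile normalization), SETBP1 (0.033 as TPM) and PAK1 (0.067 as TPM). With each culture left out in turn, the log2 fold change ranged from -0.310 to 0.034 for FAM188B, -0.025 to 0.1 for NFX1, -0.059 to 0.128 for ARG2, -0.160 to 0.077 for SETBP1 and -0.127 to 0.024 for PAK1. The cause was not tested. Over the other named genes, 24 values lost their call, among them RHBG, BCDIN3D and MGLL, and 7 gained one: CA5B in 3 fits, and CA3, SETBP1, EPG5 and LOC104974135 after quantile normalization.

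Over all genes, 5144 were higher and 4091 lower, against 5918 and 3387 as TPM and 4284 and 4679 after quantile normalization, which moved the median log2 fold change by 0.12 and -0.15. Applied to limma, the study's thresholds gave 389 up and 238 down, 213 and 141 without the trend and 213 and 162 without a filter. With a culture left out they gave 100 to 232 up and 122 to 159 down. The study tested with Cufflinks, so these are not its own counts.

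Deviations of same-numbered cultures from their group means correlated at -0.00431 to 0.0228, so the numbers are not taken as pairs. With the replicate number as a block, 3 members were higher and 2 lower, 2 were up and 0 down by the study's thresholds, and 226 genes were up and 183 down overall. RHBG lost its call with the block (BH adjusted p = 0.0735 in limma). Depth limits AQP5, AQP7 and CA12, whose differences were not detectable. SLC14A1 is listed at 0 throughout and the cause was not tested.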

Other observations

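Lists for glycerol handling and the hypoxia response were examined because AQP3 and AQP7 pass glycerol and CA9 is a marker of hypoxia. Of 7 glycerol genes, all tested, 2 rose, 1 fell and 4 were not called, where 32.5% of all tested genes were higher and 25.9% lower. The count is thus no more than that of all tested genes. The median log2 fold change was 0.37, against 0.10 for all tested genes. GPD2, the mitochondrial glycerol phosphate dehydrogenase, rose from 4.08 ± 0.130 to 5.68 ± 0.485 FPKM, and PNPLA2, a triglyceride lipase, rose from 28.0 ± 2.52 to 35.4 ± 0.340 FPKM (SD, n = 3 each). MGLL, the monoglyceride lipase, fell from 16.8 ± 0.274 to 14.1 ± 0.825 FPKM, a call lost as TPM and without control 1 or 2. GK, the kinase that phosphorylates glycerol, had a log2 fold change of 0.23 with a 95% interval from -0.25 to 0.71 and was not called.

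Of 17 hypoxia response genes, CA9 not counted among them, 9 rose, 2 fell and 6 were not called. Of all tested genes 32.5% were higher and 25.9% lower. The median log2 fold change was 0.53, against 0.10 for all tested genes. It includes EPAS1 and HIF3A, whose direction was set because they passed the minimum for testing through their butyrate values. HIF3A, not called, had means of 0.0901 FPKM in control and 0.2585 FPKM with butyrate. ALDOC, an aldolase of glycolysis, was at 8.75, 9.96 and 10.3 FPKM in control and at 91.1, 99.6 and 85.6 FPKM with butyrate, a log2 fold change of 3.24 (SE 0.086; limma, BH adjusted p = 4.05e-08). PFKFB4, a glycolytic regulator, and VEGFA, a vessel growth factor, rose by 1.33 and 1.13 on the log2 scale, and EPAS1, which encodes HIF-2 alpha, rose from 0.0695 to 0.683 FPKM, having passed the minimum for testing through its butyrate values. The genes that fell were BNIP3 and EGLN1, a mitophagy gene and the oxygen-sensing prolyl hydroxylase, with log2 fold changes of -0.77 and -0.75. The EGLN1 entry covers only bases 3273934 to 3274843 of chromosome 28, so its level is that of this short stretch. BNIP3 and EGLN1 were named after their values were seen because the count is small.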
